A study of Tupaia belangeri with 15 samples.

Results

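The nuclei described here are the NFIB-positive nuclei of the glycinergic amacrine gate in the tree shrew (TS, Tupaia belangeri) retina. The nuclei were chosen by their measured UMIs of 10 genes. A nucleus was counted when it held 3 or more UMIs of NFIB, at least 1 UMI of SLC6A9, at least 1 UMI of PAX6, TFAP2A or TFAP2B, and 0 UMI of GAD1, GAD2, SLC17A8, RLBP1 and RBPMS. A UMI is a unique molecular identifier, so that each counted RNA molecule counts once. Of the 119765 nuclei that passed the filters on gene number and mitochondrial RNA, 2030 met the rule (1.69%). They made up 20.9% of the 9722 nuclei that met all other terms of the rule at any NFIB level, which are called the glycinergic gate here. The 5816 nuclei of that gate with 0 UMI of NFIB (NFIB-zero nuclei) served as the comparison, and the remaining 1876 held 1 or 2 UMIs of NFIB.

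The study profiled the retina by single-nucleus RNA sequencing on the 10x Genomics platform at 3 stages of postnatal life, Infancy, Mature and Senile, with 5 retinas each. All animals were TSs with no stated treatment or engineered allele, and the labels give the stage but no age. By the study's methods the senile animals came from another provider than the infant and mature ones, so that stage and provider cannot be told apart in comparisons with Senile. By the study's account each group held 5 TSs, although the labels do not name the animal of a retina.

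Amacrine cells (ACs) are the inhibitory interneurons of the inner retina, and nearly all of them release either GABA or glycine. Glycinergic ACs are mostly small-field cells that carry signals vertically between the layers of the inner plexiform layer, and they are recognised by the glycine transporter GlyT1, encoded by SLC6A9. NFIB belongs to the nuclear factor I (NFI) family of transcription factors, together with NFIA, NFIC and NFIX. These factors act in the late phase of neurogenesis and in glia, and in the retina they are known from late-born neurons and Müller glia.

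The label was checked first against markers. PAX6 was detected in 97.8% of the 2030 nuclei, TFAP2A in 10.3% and TFAP2B in 14.6%, against 89.4%, 30.4% and 34.6% of the NFIB-zero nuclei, whose median depth was lower (3058 UMIs against 4715.5). These 3 genes were part of the rule, so that their shares are a description. Membership therefore rested on PAX6 in most nuclei, and PAX6 was also detected in 68.4% of the nuclei of a Müller gate (at least 2 UMIs of RLBP1, none of SLC6A9 and GAD1). The vesicular transporter SLC32A1, which loads glycine and GABA into vesicles, and GAD2 held 0 UMI in all 15 retinas, so that neither could define the cells. Of 6 ganglion cell markers, POU4F2 and NEFL were at 0 in every NFIB-positive nucleus and the other 4 had UMIs, with a summed level of 7.12 to 112 CPM in NFIB-positive and 6.57 to 121 CPM in NFIB-zero sums. Every gene on the cone, rod, horizontal, Müller, astrocyte, microglia and GABAergic AC marker lists had at least 1 UMI in these nuclei. The nuclei are therefore called by their rule, and not by a cell type name.

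Library totals ran from 13429873 UMIs in Senile 2 to 58734300 in Mature 3. The file headers named Cell Ranger 6.1.2 for 7 retinas (Infancy 1 to 3, Mature 1 and 2, Senile 1 and 2) and 7.0.1 for the other 8. Any 2 libraries shared at most 29 barcodes, and the largest overlap came to 0.405% of the smaller library. In Infancy 4, Infancy 5 and Mature 4, RNA of crystallin and lens fibre genes was detected at 3 or more UMIs in 99.9% to 100% of nuclei, whereas the highest share in the other 12 retinas was 1.91%.

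NFIB-positive nuclei were found in every retina, but their number varied from 5 to 477. The infant retinas held 54, 65, 73, 171 and 287, the mature retinas 75, 79, 228, 477 and 185, and the senile retinas 64, 5, 51, 73 and 143. As a share of all nuclei these were 0.704%, 0.728%, 0.741%, 1.95% and 4.08% in Infancy 1 to 5, 0.912%, 0.834%, 2.53%, 5.03% and 4.37% in Mature 1 to 5, and 0.845%, 0.0671%, 0.962%, 1.02% and 1.50% in Senile 1 to 5. The Wilson 95% interval, which covers counting error only, ran from 0.0287% to 0.157% in Senile 2, the lowest retina, and from 4.61% to 5.49% in Mature 4, the highest. Shares of all nuclei did not overlap between the software versions. They were 0.0671% to 0.912% (median 0.741%, n = 7) with version 6.1.2 and 0.962% to 5.03% (median 2.24%, n = 8) with version 7.0.1. After thinning to 2000 UMIs they overlapped in part, at 0% to 0.470% in the 6.1.2 and 0.348% to 1.15% in the 7.0.1 retinas. Of the 7.0.1 retinas, only Infancy 4, Senile 4 and Senile 5 then lay below the highest 6.1.2 share. With the stricter gate described below the shares overlapped as well (highest 6.1.2 share 0.295%, lowest 7.0.1 share 0.189%). The median depth of a nucleus was 1461 to 3064 UMIs in the 6.1.2 and 2267 to 5589 UMIs in the 7.0.1 retinas. Shares of the glycinergic gate did overlap, at 1.40% to 13.4% (median 8.98%) and 10.6% to 45.2% (median 28.7%). The retinas of each version also stood in a separate run of sample numbers, so that version, deposit, animals and preparation cannot be told apart. The part of depth in the shares was not tested.

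**Figure D1:**
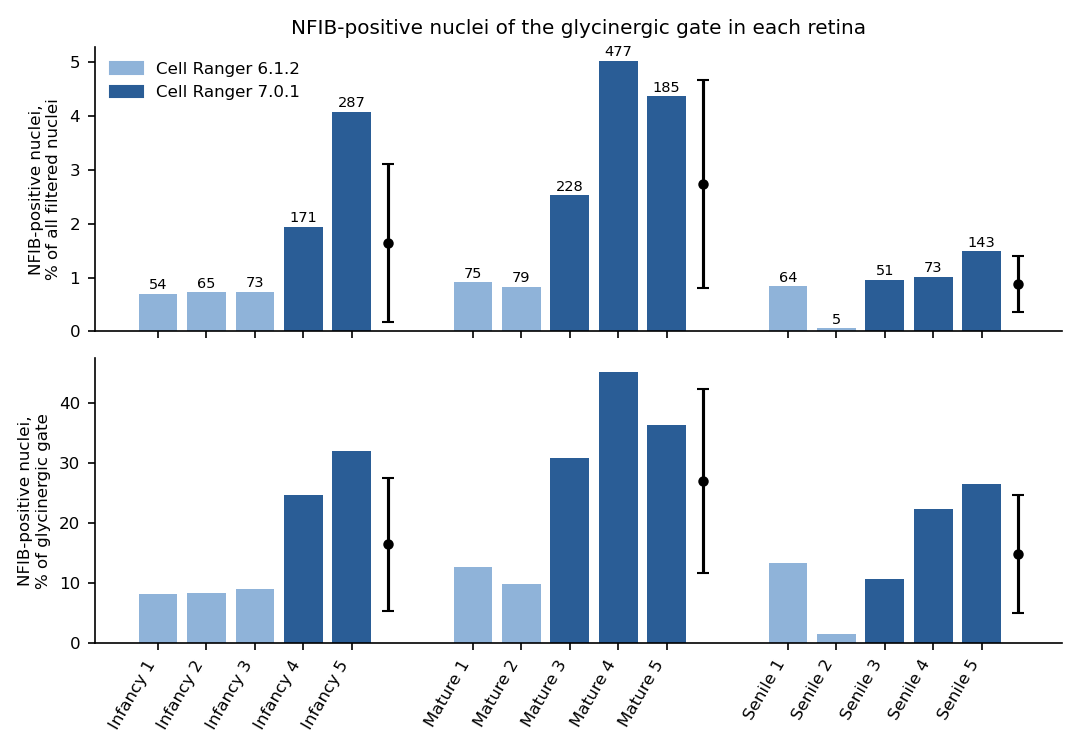
NFIB-positive nuclei of each retina as a percentage of all filtered nuclei (upper panel, number of nuclei above each bar) and of the glycinergic gate (lower panel); black points and bars are the mean and SD of the 5 retinas of a stage. The 7 retinas processed with Cell Ranger 6.1.2 (light) lay between 0.0671% and 0.912% of all nuclei and the 8 with version 7.0.1 (dark) between 0.962% and 5.03%.

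Between stages the shares did not differ beyond the spread between retinas. Of all nuclei, NFIB-positive nuclei made up 1.64% ± 1.46 in infancy, 2.73% ± 1.93 at maturity and 0.878% ± 0.516 in senility (mean ± SD, n = 5 each). Of the glycinergic gate the means were 16.4% ± 11.1, 27.0% ± 15.3 and 14.8% ± 9.89. Senile minus Mature was -1.86 percentage points of all nuclei (2-sided exact permutation test, p = 0.111, adjusted p = 0.397 over 6 comparisons) and -12.2 points of the gate (exact permutation p = 0.183, adjusted p = 0.397). Mature minus Infancy was 1.10 points of all nuclei and 10.6 points of the gate. Adjusted p over the 6 comparisons ranged from 0.397 to 0.778. Mature minus Infancy was 0.440 and 5.84 points without the MECOM set described below (adjusted p = 0.571 and 0.536, exact permutation) and 0.260 and 4.83 points after thinning (adjusted p = 0.310 for both, exact permutation). With retinas permuted within a software version, Senile minus Mature of all nuclei was -0.417 points in the 6.1.2 retinas and -2.82 points in the 7.0.1 retinas (exact permutation p = 0.0333, adjusted p = 0.12), and Senile minus Infancy was -0.268 and -1.85 points (exact permutation p = 0.04, adjusted p = 0.12). The shares of the mature and senile retinas thus differed in the same direction within both versions without passing the adjusted threshold. In the 6.1.2 retinas this rested mainly on Senile 2 (0.0671%), the library with the lowest median depth (1461 UMIs). Senile 1 (0.845%) lay between Mature 2 (0.834%) and Mature 1 (0.912%), and above Infancy 1 to 3 (0.704% to 0.741%).

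The 2030 nuclei were not uniform. Splitting them after the data were seen gave 4 groups, which account for every nucleus. A first group of 508 nuclei (25.0%) held 3 or more UMIs summed over SLC26A4 (an anion exchanger), MECOM (a zinc finger transcription factor), ABI3BP (an extracellular matrix protein) and SLC2A12 (a glucose transporter), and is called the MECOM set. A second group of 311 (15.3%) lay outside the MECOM set and scored as predicted doublets, that is, as 2 nuclei under 1 barcode. Of the remaining 1211 nuclei, 952 (46.9% of all) had at least 1 UMI of CCBE1 and 259 (12.8%) had none. CCBE1, a secreted protein of the extracellular matrix, leads the genes that the study listed for its NFIB-positive cluster. The 1211 nuclei outside the MECOM set and the predicted doublets are called the reduced set.

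The mixture changed from retina to retina. Of the 508 nuclei of the MECOM set, 340 came from Mature 4, where they were 71.3% of the NFIB-positive nuclei (Wilson 95% interval 67.1% to 75.2%). Without that retina the set held 168 of 1553 nuclei (10.8%). The MECOM set was 0% to 4.00% of the NFIB-positive nuclei in the 6.1.2 retinas and 5.26% to 71.3% in the 7.0.1 retinas. It also differed by stage, at 5.69% of the pooled members in infancy, 37.8% at maturity and 22.6% in senility. Among the 7.0.1 retinas it was 5.26% and 9.41% in infancy, 8.65% to 71.3% at maturity and 23.1% to 35.3% in senility. By the same 4 genes, nuclei of all cell types that passed the threshold of the set were 0.443% to 1.20% of all nuclei in the 6.1.2 and 4.08% to 29.5% in the 7.0.1 retinas. All predicted doublets, those inside the MECOM set included, numbered 399 (19.7%), and they were 20.0% to 45.6% of the NFIB-positive nuclei in the 6.1.2 retinas against 9.19% to 20.5% in the 7.0.1 retinas. Nuclei of the reduced set with CCBE1 made up 25.9%, 36.9%, 35.6%, 59.1% and 64.8% of the members in Infancy 1 to 5, 50.7%, 43.0%, 53.1%, 24.1% and 75.7% in Mature 1 to 5, and 45.3%, 20.0%, 39.2%, 43.8% and 49.7% in Senile 1 to 5. They were the largest of the 4 groups in 10 of 15 retinas, whereas the MECOM set was the largest in Mature 4.

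**Figure D2:**
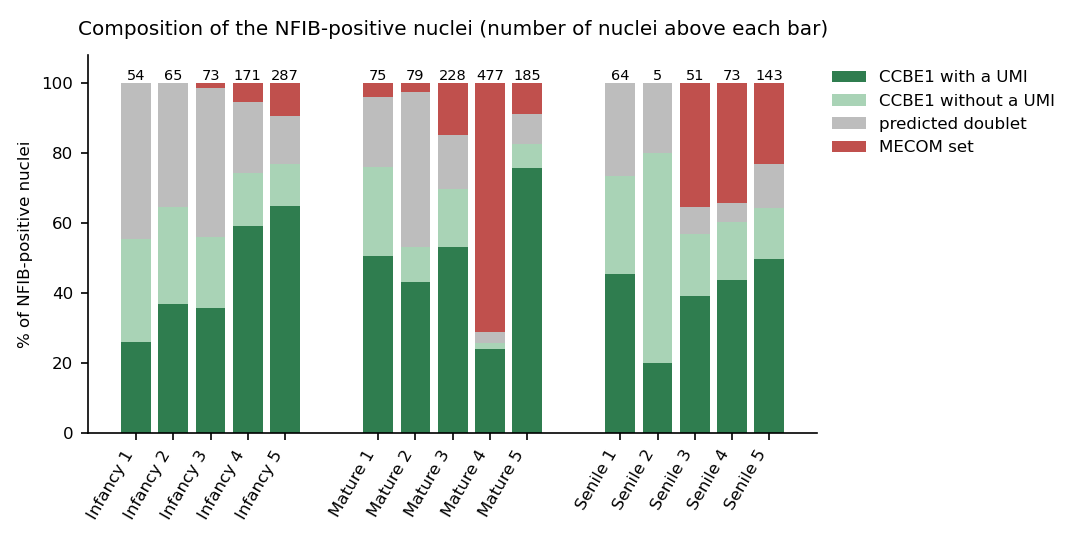
Percentage of the NFIB-positive nuclei of each retina that fell into the MECOM set, the predicted doublets outside it, and the remaining nuclei with and without a CCBE1 UMI; the number above a bar is the number of NFIB-positive nuclei. In Mature 4 the MECOM set made up 71.3% of the nuclei.

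The 4 groups differed in many genes, which are described here without a test, since the groups were made from these nuclei. Values are UMI counts scaled to a common total (CPM, 1e6 UMIs) over the summed nuclei, given as the median over the retinas with at least 10 nuclei of a group (14 for nuclei with CCBE1, 11 without, 7 for the MECOM set and 12 for predicted doublets). The 7 retinas of the MECOM set were all processed with version 7.0.1, whereas the other groups also held 6.1.2 retinas. Group and version are therefore mixed in comparisons with the MECOM set. Nuclei with CCBE1 had the highest medians of SCML4, a Polycomb-type protein, at 137 CPM against 16.5 without CCBE1, 11.8 in the MECOM set and 47.8 in predicted doublets. NFIX stood at 147, 72.5, 73.9 and 63.5 CPM in the same order. KCNH8, a voltage-gated potassium channel, stood at 299, 175, 23.5 and 166 CPM, and NR3C1, the glucocorticoid receptor, at 308, 119, 124 and 103 CPM. These 4 genes had their highest medians in the nuclei with CCBE1. All 4 are on the study's list, which was chosen on these samples and which CCBE1 leads. Their medians are therefore a description and no independent support for the group. The other genes of that list are not given by group here.

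The MECOM set had another profile. ABI3BP stood at 3320 CPM, MECOM at 1994, SLC2A12 at 1802 and SLC26A4 at 1618, which restates the choice of the set. Among genes not used to choose it, CDH2, a classical cadherin, stood at 1615 CPM against 405 in nuclei with CCBE1, and SEMA3D, a secreted semaphorin, at 588 against 12.7. The neuronal gene SYT1, the calcium sensor of synaptic vesicles, was lower in the MECOM set, at 1647 against 4262 CPM. NFIB and SLC6A9, which the rule required in every nucleus, stood at 1093 against 1091 CPM and 232 against 483 CPM, and these values are in part fixed by that choice. Nuclei without CCBE1 and predicted doublets shared high CA10, a bipolar cell gene, at 1972 and 1749 CPM against 594 in nuclei with CCBE1 and 384 in the MECOM set. TRPM1, the cation channel of ON bipolar cells, stood at 155 and 154 CPM against 62.0 and 25.4.

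The nuclei on either side of the threshold of 3 UMIs were alike in some genes and differed in others, which is given as a description. Just outside it, the 747 nuclei with 2 UMIs of NFIB had CCBE1 in 55.0% and 127 CPM of NFIX. Just inside it, the 585 nuclei with 3 UMIs had CCBE1 in 60.2% and 133 CPM of NFIX. In nuclei with 0 UMI of NFIB the values were 23.2% and 19.0 CPM, and among cones (at least 5 UMIs of ARR3, median 3079 UMIs), where the gene is not known, a CCBE1 UMI was found in 0.992%. Most of the rise of both genes lay between 0 and 1 UMI of NFIB, where CCBE1 was found in 48.1% and NFIX stood at 97.9 CPM. NFIX then levelled off, at 126 CPM with 5 or more UMIs. MECOM went on rising, from 20.4 CPM at 0 UMI to 268 at 2, 340 at 3 and 688 at 5 or more, and CA10 was at 424, 662, 612 and 1073 CPM in the same nuclei. These values were pooled over all retinas. Mature 4 held 274 of the 1050 nuclei with 5 or more UMIs, and 340 of the 508 nuclei of the MECOM set. SLC6A9 fell along the same steps of NFIB, from 555 to 521, 477 and 315 CPM. The median depth rose there from 3058 to 3640, 3821 and 5441 UMIs. Since the rule required at least 1 UMI of SLC6A9 in every nucleus, its values are in part fixed by the rule.

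Across cell types, NFIB was not particular to these nuclei. Its level was 940 ± 120 CPM in the NFIB-positive sums (SD, n = 14 retinas with at least 10 such nuclei), which the rule fixed. It was 673 ± 185 CPM in the Müller gate and 630 ± 154 CPM in an ON bipolar gate (at least 3 UMIs of TRPM1 and none of the AC genes; n = 15 each), 48.1 ± 28.8 CPM in GAD1-positive ACs (n = 14) and 28.2 ± 18.1 CPM in cones (n = 15). The Müller and ON bipolar levels differed by less than their spread, as did those of GAD1-positive ACs and cones. NFIB was detected in 81.8% of Müller nuclei (median 3675 UMIs) and 46.1% of ON bipolar nuclei (3688 UMIs), against 5.46% of cones (3079 UMIs).

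Of the other family members, NFIX stood at 111 ± 59.1 CPM in NFIB-positive nuclei, 64.8 ± 26.3 in the Müller gate, 19.7 ± 8.47 in NFIB-zero nuclei, 3.45 ± 6.74 in GAD1-positive ACs, 2.78 ± 2.18 in cones and 2.73 ± 2.72 in the ON bipolar gate. The NFIB-positive and Müller levels overlapped, and the last 3 could not be ordered. NFIA stood at 562 ± 194 CPM in NFIB-positive and 475 ± 176 in NFIB-zero nuclei, 575 ± 200 in GAD1-positive ACs, 635 ± 79.8 in the ON bipolar gate and 799 ± 232 in the Müller gate, with 37.6 ± 23.7 in cones. NFIC lay between 30.9 and 48.6 CPM in all of them.

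The genes whose levels most resembled NFIB were sought over 58 sums of NFIB-positive, NFIB-zero, GAD1-positive AC and Müller nuclei per retina. Among 7174 genes, the highest Pearson correlations of log2(CPM + 1) were those of SPON1, an extracellular matrix protein (0.83), PTPN13, a tyrosine phosphatase (0.82), and MAML2, a Notch coactivator (0.81). Among the next were CDH2 (0.79), PKP2 (0.77), ADGRL2 (0.77), TBC1D1 (0.76), NCKAP5 (0.75) and SDC2 (0.75). The rule fixed the NFIB level of the NFIB-positive and NFIB-zero sums, so that the correlations in part restate the contrast between these groups. The sums also share retinas, libraries and depth, and the correlations describe these sums only.

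The main comparison asked which genes differed between NFIB-positive and NFIB-zero nuclei of the same retina, with edgeR's quasi-likelihood test on UMIs summed per retina and the retina as a block. Senile 2, with 5 NFIB-positive nuclei, had no sum, and 14 retinas entered. The NFIB-positive sums held 287277 to 2411364 UMIs (median 428436.5) and the NFIB-zero sums 468094 to 2335907 (median 1393742). Of 15345 features tested, 1578 (10.3%) were called at a Benjamini-Hochberg adjusted p under 0.05 and a difference of at least 1 log2 unit, of which 971 were higher (6.33%) and 607 lower (3.96%) in NFIB-positive nuclei. The 10 genes of the rule were left out of the test.

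The balance of the calls changed between settings. Higher features were 61.5% of the calls in all members, but 41.0% in the reduced set (478 higher, 688 lower of 13022 tested), an alternative added after the data were seen. They were 46.5% without the MECOM set alone and 40.7% under a stricter gate that also barred 11 markers of other retinal cells (437 higher, 636 lower of 10369 tested). In other settings they were 57.7% at an NFIB threshold of 5 UMIs, 56.5% without predicted doublets alone, 55.4% with no replicate block, 54.4% with no filter on low counts and 53.8% after thinning to 2000 UMIs. The cause of these changes was not tested. As shares of all features tested, the higher and lower calls were 3.67% and 5.28% in the reduced set and 4.21% and 6.13% with the stricter gate. Of the features called in all members, 352 of the 971 higher and 415 of the 607 lower were called in the same direction in the reduced set, whereas L1RE1li109, COL23A1li1, LINC-TAF1D-7 and DCLK1-AS-2, singled out after their values were seen, were called in opposite directions. The genes named below as called in all members were also called in the same direction in the reduced set, except where another outcome is given.

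Among the genes that the study listed for its NFIB-positive cluster, 8 of 20 were called higher and 0 lower, against 6.33% and 3.96% of all features tested. The median log2 difference of the 20 genes was 0.76, against -0.03 over all features. In the reduced set 13 of 20 were called higher (median 1.29), against 3.67% of all features. The study chose this list on these samples, so that it is not independent evidence of its direction. NFIX stood at 43.0 to 280 CPM (median 95.5) in the NFIB-positive sums and at 7.89 to 36.3 (median 20.3) in the NFIB-zero sums. All 14 NFIB-positive sums lay above all 14 NFIB-zero sums for this gene, and the log2 difference was 2.43 (SE 0.193, edgeR adjusted p = 3.95e-10; 2.91 in the reduced set). KCNH8 stood at 117 to 328 CPM (median 198) against 23.0 to 61.5 (median 48.4), again without overlap (log2 difference 2.08, SE 0.126, edgeR adjusted p = 4.00e-12; 2.62 in the reduced set).

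SCML4 showed the largest difference of the list. It stood at 19.6 to 249 CPM (median 61.7) in NFIB-positive and at 0 to 25.6 CPM (median 6.91) in NFIB-zero sums, and was higher in 13 of 14 retinas (log2 difference 3.26, SE 0.34, edgeR adjusted p = 3.78e-08; 3.87 in the reduced set). FREM1, a basement membrane protein, was higher in 14 of 14 retinas (log2 difference 1.79), as were NR3C1 (1.29), NCKAP5 (1.02) and LUZP2 (1.01). With 1 retina left out, LUZP2 lay between 0.95 and 1.08 and missed the size threshold in 6 of 14 fits, and NCKAP5 missed it without Mature 5 (0.98). TMEM132D was higher in 13 of 14 (1.27). CCBE1 stood at 203 to 930 CPM (median 329) against 88.1 to 378 (median 205), higher in 13 of 14 retinas, and its log2 difference of 0.92 missed the size threshold in all members but not in the reduced set (1.47, edgeR adjusted p = 1.15e-08). The other 11 genes of the list that were not called, among them BRINP3, NRP1 and SASH1, had log2 differences between 0.33 and 0.77.

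**Figure D3:**
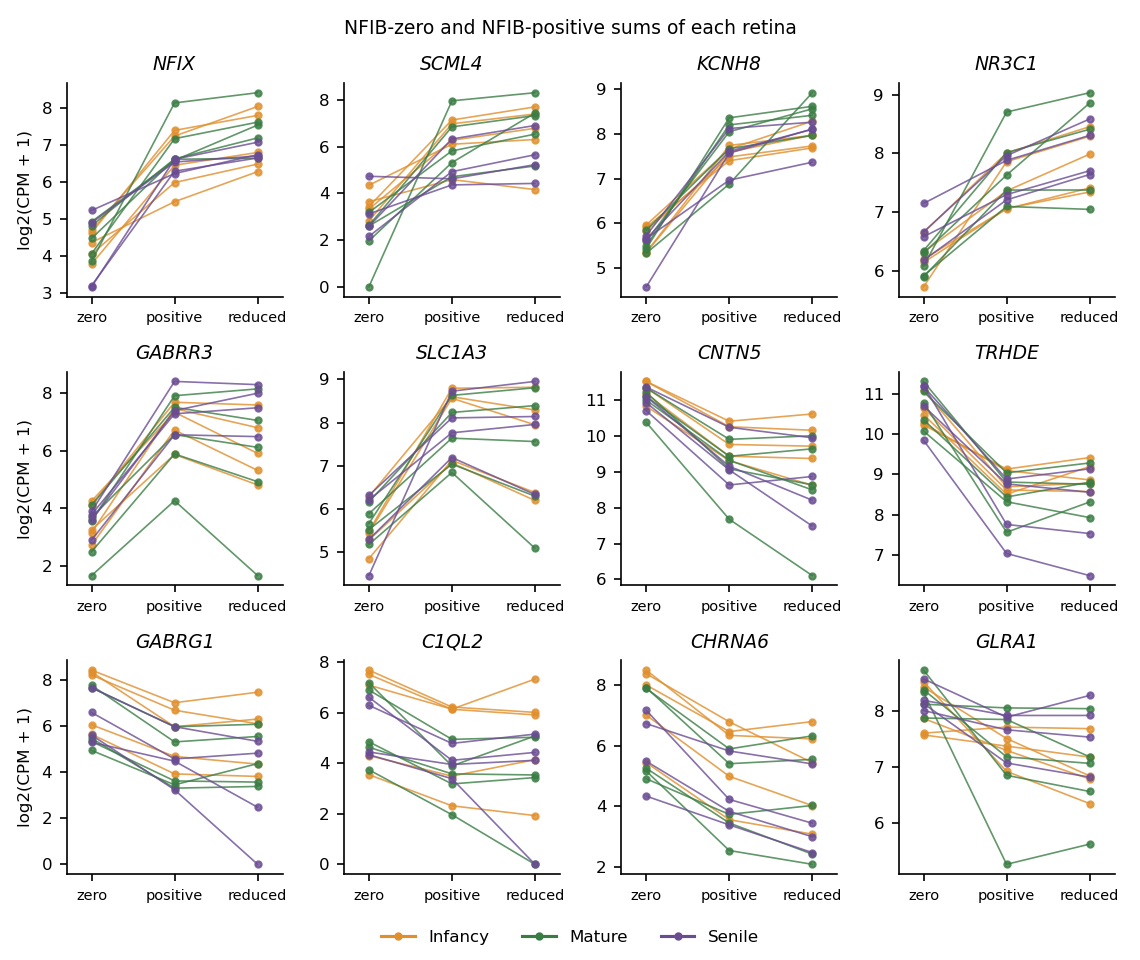
log2(CPM + 1) of 12 genes in the NFIB-zero sum, the NFIB-positive sum and the sum of the reduced set of each of 14 retinas, joined by a line and coloured by stage. NFIX, KCNH8 and GABRR3 were higher in the NFIB-positive sum in 14 of 14 retinas; CNTN5, TRHDE, GABRG1, C1QL2 and CHRNA6 were lower in 14 of 14, and GLRA1 in 13 of 14.

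The 12 single-gene symbols with the largest rise among those higher in every retina and above 10 CPM in every NFIB-positive sum (84 passed) had log2 differences of 2.46 to 3.59. They were led by GABRR3, a rho subunit of ionotropic GABA receptors, at 18.2 to 337 CPM (median 157) against 2.19 to 18.1 (median 11.0). The lowest NFIB-positive sum, in Mature 4, lay just above the highest NFIB-zero sum, and the log2 difference was 3.59 (SE 0.136, edgeR adjusted p = 1.30e-15; 3.64 in the reduced set). GABRR3 was highest in Senile 1 (337 CPM), Mature 1 (239) and Infancy 2 (204), which were all processed with version 6.1.2, and it stood at 207 ± 72.8 CPM in the ON bipolar gate.

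COL9A1 and COL9A2, chains of collagen IX, differed by 3.53 and 2.80 log2 units in all members and by 2.05 and 1.32 in the reduced set. COL9A1 ranged from 14.8 CPM in Senile 1 to 627 CPM in Mature 4, against 0 to 59.1 CPM in NFIB-zero sums. GLI3, a Hedgehog pathway transcription factor, differed by 3.22 (1.57 in the reduced set), CGNL1, a tight junction protein, by 3.06 (1.50), CD109, a surface protein, by 2.65 (1.62), LTBP2, a latent TGF-beta binding protein, by 2.56 (1.49), and PKP2, a desmosomal protein, by 2.46 (1.54). COLEC12, a scavenger receptor, differed by 3.19 in all members but was not called in the reduced set (0.91, edgeR adjusted p = 0.0621). In the reduced set GLI3 and CGNL1 were higher in 10 of 14 retinas, and CD109 and COLEC12 in 11. COL9A1 and LTBP2 were higher there in 12 of 14, and COL9A2 and PKP2 in 13. The differences of these 8 genes were smaller without the MECOM set and the doublets, whereas PTPRQ, a receptor phosphatase (3.09 and 2.64), CHRDL1, a BMP antagonist (2.91 and 2.73), and YU005 (2.77 and 2.77) moved less.

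The 12 genes with the largest fall among 138 that passed the same rule had log2 differences of -2.41 to -1.98, and all 12 were called in the reduced set as well. Among them were the muscarinic acetylcholine receptor CHRM2 (-2.41) and the nicotinic subunits CHRNB3 (-2.11) and CHRNA6 (-1.98). The other acetylcholine receptor genes were not counted as a list. CHRNB3 stood at 9.54 to 79.4 CPM (median 26.4) in NFIB-positive and at 66.2 to 189 CPM (median 104) in NFIB-zero sums. TRHDE, the peptidase that degrades thyrotropin-releasing hormone, stood at 131 to 560 CPM (median 402) against 921 to 2530 (median 1632), without overlap (log2 difference -2.26, SE 0.139, edgeR adjusted p = 5.31e-12). SPOCK3, an extracellular proteoglycan, stood at 53.1 to 407 CPM against 551 to 1103, also without overlap (-2.17). CAMK2A, a calcium-dependent kinase of synapses (-2.26), GALNT14 (-2.21), C14ORF132 (-2.26), CPNE6 (-2.16), ARHGAP28 (-2.01), COL12A1 (-1.99) and CLSTN2 completed the group.

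Of the genes that handle glycine, 8 of 15 could be tested, 1 was called higher and 0 lower (median log2 difference -0.13). Over all features tested, 6.33% were higher and 3.96% lower. GLDC, which degrades glycine in mitochondria, was the one called by edgeR, and DESeq2 called 0 (1.04, SE 0.165, edgeR adjusted p = 2.13e-05). It stood at 17.7 to 214 CPM (median 42.7), highest in Mature 4, against 14.4 to 54.0 (median 22.9), and the difference in the reduced set was 0.18 (edgeR adjusted p = 0.561). GLDC stood at 206 CPM in the MECOM set and at 25.0 in nuclei with CCBE1. The glycine receptor subunit GLRA1 stood at 37.3 to 266 CPM (median 174) against 190 to 427 (median 287), lower in 13 of 14 retinas (log2 difference -0.95, under the size threshold; -1.22 and called in the reduced set). GPHN, encoding gephyrin, the scaffold of inhibitory synapses, differed by -0.02 (SE 0.0613).

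Markers of named AC types were mixed. GAD2 held 0 UMI in all retinas, and the gate of GAD1-positive ACs held 404 of 119765 nuclei. The NFIB-zero nuclei may thus include GABAergic ACs without a GAD1 UMI, whose part in these markers was not tested. Of 5 AII markers, edgeR and DESeq2 called 0 in either direction (median -0.23). All 5 had an unadjusted p under 0.05, as did 5283 of all 15345 features tested. Of the 5 markers, 3 passed the adjusted threshold below the size threshold (DNER -0.75, GJD2 -0.56 and DAB1 -0.23), and PROX1 did so in the other direction (0.43). GJD2, the gap junction protein connexin 36, was called lower in the reduced set (-1.10, lower in 12 of 14 retinas), with predicted doublets removed (-1.10) and with the stricter gate (-1.23). Of 15 genes of other AC types, 6 were lower and 2 higher (median -0.88), against 3.96% and 6.33% of all features tested. The lower ones were the dopamine receptor DRD2 (-1.87, lower in 14 of 14 retinas), the peptides VIP (-1.94), NPY (-1.70) and TAC1 (-1.25), the monoamine transporter SLC18A2 (-1.64) and the acetylcholine-synthesising enzyme CHAT (-1.22). The higher ones were RELN (1.57), a secreted matrix protein, at 87.1 to 307 CPM against 35.0 to 69.1 without overlap, and MEGF10 (1.35), a cell-spacing receptor of starburst cells. SLC18A2 was not tested in the reduced set, and with the stricter gate 4 of 12 such genes were lower and 0 higher (6.13% and 4.21% of all features). Of 4 genes of other glycinergic types, NEUROD2 was lower (-1.57), while EBF3 (0.71) missed the size threshold in all members. EBF3 passed it in the reduced set (1.25), without the MECOM set alone (1.02) and with the stricter gate (1.13), which also barred nuclei with a UMI of other types' markers. The largest rise of the 4 genes in all members, 0.91, was that of another gene and also missed the size threshold.

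Of the GABAergic AC markers, C1QL2, a secreted protein of the C1q family, stood at 2.90 to 73.8 CPM (median 14.2) against 10.7 to 205 (median 52.7). It was lower in 14 of 14 retinas, although the ranges overlapped (log2 difference -1.63, SE 0.15, edgeR adjusted p = 4.91e-09). Of 17 AC transcription factors, only ISL1, which ON bipolar cells also express, was called in all members (6.33% higher and 3.96% lower of all features). Its log2 difference was 1.41 (higher in 13 of 14 retinas, 1.09 in the reduced set). Of the same factors 2 were higher and 3 lower in the reduced set (3.67% and 5.28% of all features). With the stricter gate 1 of 16 was higher and 6 were lower (4.21% and 6.13% of all features). MEIS2, at 185 to 631 CPM against 413 to 938, was lower in 14 of 14 (-0.92, and -1.26 and called in the reduced set).

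Receptor and channel genes moved in both directions. Over all features tested, 6.33% were higher and 3.96% lower in all members, and 3.67% and 5.28% in the reduced set. Of 16 GABA receptor genes, 3 were higher (GABRR3 3.59, GABRR1 2.07 and GABRA5 1.14) and 3 lower (GABRG1 -1.89, GABRD -1.32 and GABRA3 -1.13). The counts in the reduced set were 3 higher and 1 lower, since GABRA3 missed the size threshold there (-0.93), as it did without Mature 4 (-0.99), and GABRD missed the adjusted threshold (-1.11, edgeR adjusted p = 0.0524). GABRG1 stood at 8.44 to 129 CPM (median 23.8) against 29.9 to 346 (median 80.8) and was lower in 14 of 14 retinas, although the ranges overlapped. Of 20 glutamate receptor genes, 1 was higher and 3 were lower, against 6.33% and 3.96% of all features in all members. The lower ones included GRIN2C (-1.34) and GRIN3A (-1.29). With the stricter gate 2 of 16 GABA receptor genes were higher and 4 lower, and 0 of 19 glutamate receptor genes were higher and 5 lower, against 4.21% higher and 6.13% lower of all features.

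Of 29 potassium and HCN channel genes, KCNH8 and HCN4 were higher and 7 were lower, among them KCNT1 (-1.45), KCNH5 (-1.21) and the channel-modulating KCNIP4 (-1.15). Over all features tested, 6.33% were higher and 3.96% lower. HCN4 missed the size threshold without Infancy 5 (0.95) or Infancy 3, and KCNIP4 missed it without Mature 4 (-0.99). Of 17 sodium and calcium channel genes, 2 were higher (CACNA1H 1.35 and CACNA1F 1.02) and 3 lower (CACNA1I -1.92, CACNA1B -1.15 and CACNA2D2 -1.07), against the same shares of all features. CACNA1B missed the size threshold in the reduced set (-0.89), and with the stricter gate 0 of 16 were higher and 6 lower (4.21% and 6.13% of all features).

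Guidance and adhesion genes were more often lower than higher, with 14 of 67 tested lower and 3 higher (median -0.23, against -0.03 over all features, of which 3.96% were lower and 6.33% higher). The counts were 16 lower and 2 higher in the reduced set, and with the stricter gate 29 of 65 were lower and 1 higher (median -0.86, against -0.10 over all features, of which 6.13% were lower and 4.21% higher). CNTN5, an adhesion protein of the contactin family, stood at 204 to 1356 CPM (median 663) against 1327 to 2924 (median 2242) and was lower in 14 of 14 retinas (-1.78, SE 0.0968, edgeR adjusted p = 8.48e-13; -2.17 in the reduced set). The neurexin-like gene CNTNAP2 (-1.48), the cadherins CDH18 (-1.30) and CDH6 (-1.27), the synaptic organiser LRRTM4 (-1.30), the netrin receptor DCC (-1.02) and its ligand NTN1 (-1.70), and the Eph receptors EPHA3 (-1.53), EPHA4 (-1.45) and EPHA5 (-1.02) were lower too. The higher ones were SEMA3C (2.29), CDH2 (1.12) and TENM3 (1.03), a teneurin. CDH2, TENM3 and EPHA5 were under the size threshold in the reduced set, at 0.63, 0.94 and -0.92.

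Of 23 genes of glycosaminoglycan synthesis and proteoglycans, 3 were higher and 1 lower, against 6.33% and 3.96% of all features tested. SDC2, a heparan sulfate proteoglycan of the cell surface, stood at 160 to 223 CPM against 54.9 to 106 without overlap (1.20, SE 0.0711, edgeR adjusted p = 3.54e-12), HS3ST4 and GPC3 were higher (1.17 and 1.66), and CSGALNACT1 was lower (-1.29). GPC3 was not tested in the reduced set. Of 7 genes of the steroid receptor response, 3 were higher, against 6.33% of all features tested. The 3 genes were NR3C1, ZBTB16 (2.02, higher in 14 of 14 retinas) and FKBP5 (2.32), the last at 130 CPM in the MECOM set against 2.47 in nuclei with CCBE1.

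Of 10 genes of immature neurons GAP43 was lower (-1.90) and none higher, against 3.96% and 6.33% of all features tested. All 10 had an unadjusted p under 0.05, as did 5283 of all 15345 features tested. In the reduced set 2 of the 10 genes were lower (5.28% of all features), and with the stricter gate 5 (6.13% of all features), with 0 higher in both. Of 17 synaptic vesicle genes SV2B was higher (1.18), and of 8 heat shock genes BAG3 was higher (1.36), against 6.33% of all features tested. BAG3 was not called in the reduced set (0.77, edgeR adjusted p = 0.356), without the MECOM set alone or with the stricter gate. Of 12 nuclear genes of the respiratory chain, edgeR and DESeq2 called 0, and 1 had an unadjusted p under 0.05. Of 4 immediate early genes both tools called 0, with 0 at an unadjusted p under 0.05.

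**Figure D4:**
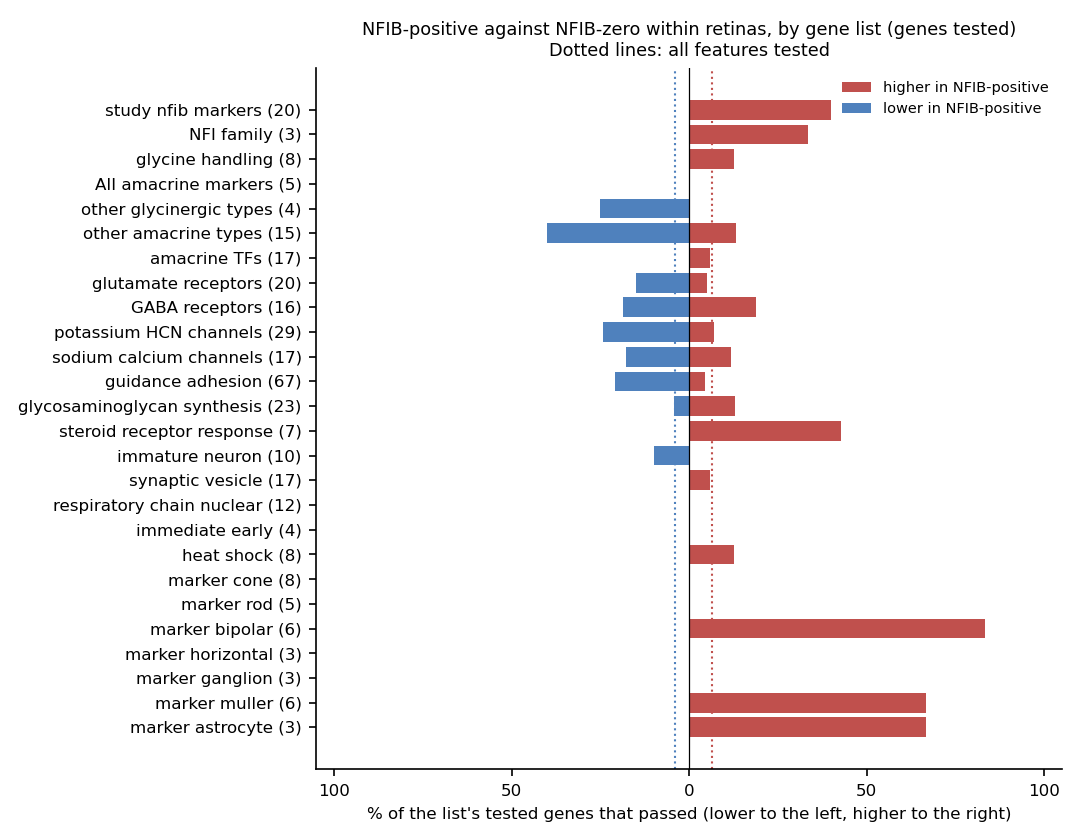
For each gene list with at least 3 tested genes, the percentage of its tested genes that were called higher (right) or lower (left) in NFIB-positive than in NFIB-zero nuclei of the same retina; the number tested is in brackets and dotted lines mark the percentage over all features tested. Bipolar (5 of 6), Müller (4 of 6) and astrocyte (2 of 3) markers had the largest shares of higher genes.

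Markers of other retinal cells moved with the comparison. Of 6 bipolar markers tested, 5 were higher in NFIB-positive nuclei (median 1.74), as were 4 of 6 Müller markers (median 1.35) and 2 of 3 astrocyte markers (median 2.55). Over all features tested, 6.33% were higher. Of 8 cone, 5 rod, 3 horizontal, 3 ganglion cell and 1 microglia markers, edgeR and DESeq2 called 0, and 5, 3, 2, 2 and 0 of them had an unadjusted p under 0.05. Over all features tested, 5283 of 15345 had such a p. In the reduced set 5 cone markers and the rod marker SAG were called lower, against 5.28% of all features tested there. ST18, a transcription factor of bipolar cells, stood at 88.7 to 290 CPM (median 229) against 34.9 to 62.2 (median 43.7), without overlap, and at 700 ± 101 CPM in the ON bipolar gate. SLC1A3, the glutamate transporter of Müller glia, stood at 114 to 443 CPM (median 245) against 20.8 to 78.2 (median 44.1), also without overlap, and at 1327 ± 328 CPM in the Müller gate.

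The summed bipolar markers ranged from 511 to 3042 CPM (median 1873) in NFIB-positive, from 512 to 1000 CPM (median 663) in NFIB-zero and from 430 to 3469 CPM (median 1582) in the reduced sums. The summed Müller markers ranged from 213 to 905 CPM (median 413), from 55.5 to 274 CPM (median 118) and from 121 to 769 CPM (median 312), respectively. In the reduced set TRPM1 (1.88), ST18 (2.36), SLC1A3 (2.20) and CHRDL1 (2.73) were still called higher, so that leaving out the MECOM set and predicted doublets did not remove these markers. There 3 of 5 bipolar and 3 of 5 Müller markers tested were called higher (3.67% of all features). With the stricter gate, which barred some of them, 1 of 4 bipolar and 0 of 1 Müller markers were called higher (4.21% of all features). The part of these cells in the genes described above was not tested.

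The stage comparisons asked which genes differed with age within the NFIB-positive nuclei, with edgeR on the sums of 14 retinas (5 infant, 5 mature and 4 senile) and the software version as a covariate. Of 7755 features tested, 21 (0.271%) were called between Senile and Infancy, 19 higher (0.245%) and 2 lower (0.0258%) in senility. Between Mature and Infancy 12 (0.155%) were called, 11 higher (0.142%) and 1 lower (0.0129%). With 1 retina left out these counts lay between 16 and 62 and between 2 and 26, both highest without Mature 4 and the second lowest without Infancy 4 or Infancy 5. The features called in both numbered 11, and both comparisons share the infant retinas. The sums also differed in make-up, with the MECOM set at 5.69% of the pooled members in infancy, 37.8% at maturity and 22.6% in senility. Without that set 34 features were called between Senile and Infancy and 28 between Mature and Infancy. The part of the make-up in the stage differences was not tested. Between Senile and Mature edgeR called 0 (0%), with 608 features at an unadjusted p under 0.05 and 3 calls by DESeq2. Such a p was found for 498 features between Senile and Infancy and 690 between Mature and Infancy. All of these counts were above a share of 0.05 of the features tested, which chance alone would pass.

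Of the 21 features called between Senile and Infancy, 16 were numbered copies, mostly named for repeats and gene families (ZFP39, ZFP809, ENV, VMN2R116 and LORF2), and 4 were non-coding features. Reads of such copies may be split among near-identical sequences, so that their counts are uncertain. One of the 2 lower calls was CRYGEliN, a crystallin copy, named after its values were seen. It stood at 0 CPM in Infancy 1 to 3, 3382 CPM in Infancy 4 and 964 CPM in Infancy 5, at 39.8 CPM in Mature 4 and at 0 to 2.37 CPM in the other sums. The 3 highest retinas were those with lens RNA in nearly every nucleus, and its adjusted p was 0.0259 with edgeR and 0.618 with DESeq2. The edgeR call was lost in the 7.0.1 retinas alone and without Senile 3, Senile 4 or Senile 5. All 21 differed in the same direction between the mean CPM of the NFIB-zero sums. MIA3li3 stood at 19.8, 14.8, 20.9, 13.7 and 7.96 CPM in the infant retinas, at 129, 100, 143, 59.7 and 141 CPM in the mature and at 151, 114, 211 and 217 CPM in Senile 1, 3, 4 and 5. All infant sums lay below all others (log2 difference of Senile minus Infancy 3.65, SE 0.351, edgeR adjusted p = 9.70e-05; 3.02 for Mature minus Infancy). In the NFIB-zero sums MIA3li3 stood at 19.7 to 41.6 CPM in infancy and at 117 to 222 CPM in senility.

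IGF2BP2, which encodes an RNA-binding protein and stood on the list of immature neurons, was the only single-gene symbol called and met the rule for named genes. It stood at 49.6, 65.0, 45.3, 67.4 and 55.7 CPM in the infant retinas, at 9.19, 0, 32.2, 22.0 and 17.0 CPM in the mature and at 2.96, 9.81, 7.12 and 10.9 CPM in Senile 1, 3, 4 and 5. Every infant sum lay above every mature and senile sum. The log2 difference of Senile minus Infancy was -3.19 (SE 0.505, edgeR adjusted p = 0.00607), and that of Mature minus Infancy was -1.99 (edgeR adjusted p = 0.062). In NFIB-zero nuclei IGF2BP2 stood at 25.7 to 41.3 CPM in infancy and at 1.43 to 10.7 CPM in senility. The call was lost in the reduced set (-3.25, edgeR adjusted p = 0.0998), without the version in the model (-2.87, 0.0604) and in the 7.0.1 retinas alone (-2.77, 0.0579). IGF2BP2 fell below the filter on low counts after thinning and with the stricter gate, and was not tested there.

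**Figure D5:**
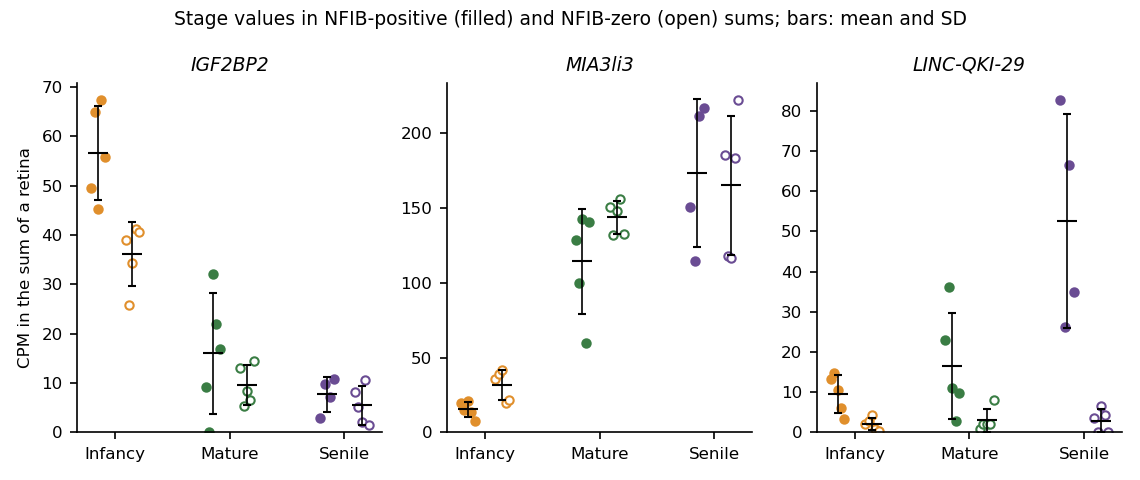
CPM of IGF2BP2, MIA3li3 and LINC-QKI-29 in the NFIB-positive (filled) and NFIB-zero (open) sum of each retina by stage; bars give the mean and SD. Infant NFIB-positive sums of IGF2BP2 lay between 45.3 and 67.4 CPM and senile ones between 2.96 and 10.9.

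Among the non-coding features, LINC-QKI-29 was described after its values were seen, because it was low in NFIB-zero nuclei. It stood at 13.2, 14.8, 10.4, 5.98 and 3.41 CPM in the infant retinas, at 23.0, 36.1, 11.0, 2.90 and 9.70 CPM in the mature and at 82.8, 26.2, 66.4 and 35.0 CPM in the senile. The senile sums lay above all infant sums (log2 difference 3.01, SE 0.448, edgeR adjusted p = 0.00363), whereas the NFIB-zero sums of all stages lay between 0 and 8.12 CPM. The call was lost without the version in the model (2.63, edgeR adjusted p = 0.311), in the 7.0.1 retinas alone (3.13, 0.310) and with sex as marked by the study in the model (2.73, 0.0626), and LINC-QKI-29 was not tested in the reduced set. The test of whether the stage difference differed between the nuclei gave a log2 difference of 2.34 (SE 0.906, edgeR adjusted p = 0.959).

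No gene of the study's list was called between stages by edgeR. Of 284 list genes tested in 28 lists, IGF2BP2 was the only one called between Senile and Infancy in all members, and edgeR called 0 in the other 2 comparisons. Over all 7755 features tested, 0.271% were called between Senile and Infancy, 0.155% between Mature and Infancy and 0% between Senile and Mature. The list counts were thus near the shares over all features. In the reduced set the list genes called between Senile and Infancy were the potassium channel gene KCNQ5 (-2.05, edgeR adjusted p = 0.0111; -1.65 in all members, adjusted p = 0.199) and the synaptic adhesion gene LRRTM3 (-1.80, edgeR adjusted p = 0.0111; -1.23 in all members, adjusted p = 0.184), both lower in senility. Over all features tested in the reduced set, 20 of 5432 were called between Senile and Infancy, 15 higher and 5 lower. The 20 genes of the study's list had median log2 differences of -0.22 for Senile minus Infancy, 0.08 for Mature minus Infancy and -0.51 for Senile minus Mature. NFIX stood at 102 ± 54.3 CPM in infancy, 142 ± 79.5 at maturity and 84.6 ± 11.1 in senility (SD, n = 5, 5 and 4). SCML4 stood at 86.7 ± 47.2, 96.6 ± 91.6 and 38.1 ± 27.9 CPM, with a log2 difference of -1.53 (SE 0.55) for Senile minus Infancy (edgeR adjusted p = 0.663). KCNH8 stood at 191 ± 18.0, 241 ± 83.3 and 197 ± 63.0 CPM. The summed cone markers stood at 459 to 800 CPM in the infant, 283 to 1241 in the mature and 621 to 1910 CPM in the senile NFIB-positive sums, and their part in the stage differences was not tested.

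Whether the stage difference itself differed between NFIB-positive and NFIB-zero nuclei was tested as an interaction over 15345 features. For Senile against Infancy edgeR called 0 features (0%), and 737 had an unadjusted p under 0.05. For Mature against Infancy it called 0 (0%), and 696 had an unadjusted p under 0.05. Both counts were below a share of 0.05 of the features tested, which chance alone would pass. The count from DESeq2 was 0 in either case. For IGF2BP2 the 2 stage differences differed by 0.16 log2 units (SE 0.663, edgeR adjusted p = 1). For SCML4 they differed by -1.33 (SE 0.734, edgeR adjusted p = 1). In the reduced set, 16 features were called for Senile against Infancy.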

How the data were processed

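Single-nucleus libraries of 15 TS retinas were read as deposited. Per the study's methods, nuclei of frozen retinas were processed on the 10x Genomics platform and aligned to the TS_3.0 assembly. The files hold raw UMI counts per feature, which the authors deposited as filtered Cell Ranger matrices without normalization. The file headers name Cell Ranger 6.1.2 or 7.0.1, whereas the submitters' processing notes name 5.0.1 and 7.0.1. Later versions count intronic reads by default, and the setting used was not given in the sources used here.

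Filters kept 119765 of 120437 barcodes. A kept nucleus had over 200 but under 6000 genes detected, and its mitochondrial share was under 5%. The doublet removal of the study is not part of the deposited matrices. Doublets were scored against simulated ones (30 components, 40 neighbours) and kept in the main analysis. UMIs were summed per retina where at least 10 nuclei were present and tested with edgeR 4.0.16 (R 4.3.3; TMM, low counts filtered) with Benjamini-Hochberg adjustment. The retina was a block within retinas, and Cell Ranger version a covariate between stages. Calls within retinas also required 1 log2 unit. The 10 genes of the rule, their numbered copies and their antisense features were left out of all fits. Shares were compared by 2-sided exact permutation over retinas. CPM are relative to all UMIs of a sum. Total UMIs per library set the precision, and intervals cover counting error only.

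The rule for named genes took up to 12 single-gene symbols in each direction with the largest called difference, at least 10 CPM in every retina of the higher group and the same direction in every retina, or no overlap between stages, beside the members of the gene lists described. The members and lists were chosen with earlier results of these data known. Alternatives were DESeq2 1.42.0, no filter, other NFIB thresholds, thinning to 2000 UMIs, a stricter gate, removal of doublets, other covariates and leaving out each retina. Sums without the MECOM set were added after the data were seen. Scripts were tested on simulated data. Some genes of the lists are counted but not reported here by name.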

Additional observations from a re-analysis of the deposited data

Results flagged for a closer look

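The MECOM set made up 71.3% of the NFIB-positive nuclei in Mature 4 (340 of 477), whereas the nearest other mature retina, Mature 3, had 14.9%. The gap to that retina was 0.82 of the range of the 5 mature retinas, above the 95% critical value of Dixon's test. Of 30 such groups of shares and counts that were examined, this was the only one past its critical value, and chance passes about 1 in 20 groups. The genes of the MECOM set were chosen after these data were seen, and most of its nuclei came from Mature 4. The test is therefore a description of the gap and not independent support for it. In Mature 4 the MECOM set made up 29.5% of all nuclei, against 0.443% to 8.65% in the other 14 retinas, and the same retina was among the 3 with lens RNA in nearly every nucleus. Whether these measurements are related was not tested.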

How the results depend on the processing

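The 1578 calls within retinas became 930 after thinning to 2000 UMIs and 727 with no replicate block, and lay between 1376 and 1595 when 1 retina was left out, lowest without Mature 4. Between Senile and Infancy the 21 calls became 34 with DESeq2, 243 with no filter, 1 with the stricter gate, 4 after thinning, 34 without the MECOM set, 13 without the version as a covariate, 103 in the 6.1.2 retinas and 2 in the 7.0.1 retinas. With 1 retina left out they lay between 16 and 62, highest without Mature 4. Senile 2 had no sum, so that the senile group of the 6.1.2 retinas was Senile 1 alone. The 6.1.2 counts of Senile against Infancy, and of Senile against Mature below, thus lack any spread between senile retinas. No conclusion is drawn from them. Between Mature and Infancy the 12 calls became 46 with DESeq2, 428 with no filter, 5 at an NFIB threshold of 5 UMIs and 4 without predicted doublets. They became 1 with the stricter gate, 3 after thinning, 28 without the MECOM set and 4 without the version. They became 8 with the sex marked by the study in the model and 0 in the 7.0.1 retinas. In the 6.1.2 retinas they became 41, of which 19 were higher and 22 lower, against 11 higher and 1 lower in the main fit. With 1 retina left out they lay between 2 (without Infancy 4 or Infancy 5) and 26 (without Mature 4), with 6 without Mature 1 and 7 without Infancy 3 or Mature 5. Between Senile and Mature the count of 0 became 3 with DESeq2, 115 with no filter and 10 in the 6.1.2 retinas, and 0 to 1 with 1 retina left out (1 without Infancy 4).

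The interaction for Senile became 29 with no filter, 1 without predicted doublets, 16 with the stricter gate and 16 in the reduced set, and 0 to 4 with 1 retina left out (4 without Mature 4 and 2 without Senile 1). That for Mature became 21 with no filter, 15 with the stricter gate and 3 after thinning, and 0 to 2 with 1 retina left out (2 without Mature 2 or Mature 3). The cause of these changes was not tested. The sex marked by the study went against Y-linked RNA in 9 of 15 retinas: DDX3Y was present at 26.8 CPM or more in 5 retinas marked female and at most at 0.131 CPM in 4 marked male, so that the fit with sex adjusts for the marked sex only.

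The Senile minus Infancy share of the gate turned positive, at 0.552 points at an NFIB threshold of 5 UMIs and 0.165 after thinning, and lay between -4.49 and 2.30 with 1 retina left out (0.459 without Infancy 4, 2.30 without Infancy 5 and 1.77 without Senile 2). The other share differences kept their sign with 1 retina left out. They lay between -0.996 and -0.152 for Senile minus Infancy, 0.522 and 1.70 for Mature minus Infancy and -2.33 and -1.28 for Senile minus Mature of all nuclei, and between 6.04 and 14.9 for Mature minus Infancy and -16.5 and -7.63 for Senile minus Mature of the gate. NFIA changed from 0.13 to -0.61 with the stricter gate, -0.0201 after thinning, -0.0871 without the MECOM set and -0.19 in the reduced set.

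With replicate numbers as a replicate block, 24, 13 and 0 features were called between stages, and the shares had adjusted p of 0.125 to 0.438, where the smallest p allowed was 0.0625. The numbers did not pair the retinas: over 13 pairs the correlation of deviations was -0.245 to 0.103, and 0 of 14 retinas correlated best with its own number. Senile 2, with 5 NFIB-positive nuclei, limited the senile group to 4 sums, and genes under a few UMIs per sum could not be judged at this depth.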
